A study of Mus musculus with 8 samples.

Results

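Claustrum and layer 6b marker genes were followed in the frontal cortex of adult mice with and without the HAR123 enhancer. The 10 genes were Rxfp1, Gnb4, Cplx3, Synpr, Ntng2, Nxph3, Nxph4, Lxn, Nnat and Moxd1. They were taken by symbol, as listed genes of the claustrum, the endopiriform nucleus and cortical layer 6b other than Nr4a2, and each matched 1 of the 55536 genes in the count table. The list was chosen by the fold changes between these same 2 genotypes, which were known when it was proposed, so that difference is described for the 10 genes below and is not tested. Total RNA depleted of ribosomal RNA was sequenced from 4 wild-type (WT) and 4 HAR123-KO libraries, all from mice aged 8 weeks. HAR123-KO mice lack the mouse counterpart of HAR123, a conserved noncoding sequence within an intron of Smg6 that was removed with CRISPR-Cas9 in C57BL/6J embryos. The study's mouse strains were backcrossed to C57BL/6J and its WT controls were littermates. The labels give no sex, and a bulk piece of cortex holds every cell type of the region.

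The claustrum is a thin sheet of mostly glutamatergic neurons between the insular cortex and the striatum, with reciprocal connections to much of the cortex, and the endopiriform nucleus lies below it next to the piriform cortex. Layer 6b is the deepest cortical layer, at the border with the white matter, and contains surviving neurons of the embryonic subplate. These populations are small, share several marker genes with each other, and also share the transcription factor Nr4a2 (also called Nurr1). Few of the 10 genes belong to these cells alone. Nnat, Lxn, Ntng2 and Synpr are also made by other neurons of the cortex.

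The total count per library ranged from 13528251 to 17051001. Between 55.1% and 58.0% of it fell on Gm42418, a locus that overlaps ribosomal RNA sequence, and 2786320 to 3732172 counts fell on nuclear protein-coding genes other than Lars2, a gene whose exons also carry ribosomal reads. To see whether the tissue held cortex, markers of cortical excitatory neurons were looked at, which do not tell frontal from other cortex. Slc17a7, Tbr1, Neurod6 and Emx1 were all detected, with WT means of 3647, 545, 205 and 56.4 normalized counts (counts divided by a size factor per library). Smg6, the gene that hosts the deleted sequence, had 199 to 217 normalized counts in WT and 205 to 240 in HAR123-KO libraries (log2 fold change 0.05 ± 0.09 SE, adjusted p = 0.964 by DESeq2), but exon counts do not check an intronic deletion. In pairwise comparisons the libraries of one genotype differed from each other by less than libraries of different genotypes did. Chi-square divided by its degrees of freedom, where sampling noise alone gives 1, was 1.21 to 1.30 within and 1.58 to 1.72 between genotypes.

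The 10 genes together had a lower level in HAR123-KO than in WT libraries. Their summed normalized count was 1104 to 1218 in the 4 WT libraries and 919 to 954 in the 4 HAR123-KO libraries, so the HAR123-KO mean was 82.3% of the WT mean and the groups did not overlap. The difference was uneven. Rxfp1, Moxd1, Gnb4 and Cplx3 had means 27.1% to 33.0% lower and Nnat had a mean 19.6% lower, and in these 5 genes every HAR123-KO library lay below every WT library. Synpr and Ntng2 had means 11.5% and 11.4% lower with overlapping libraries, and Lxn and Nxph3 were close to WT. Nxph4 also had a mean close to WT but too few counts to compare. In bulk RNA, fewer cells of a type and less RNA per cell cannot be told apart.

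**Figure D1:**
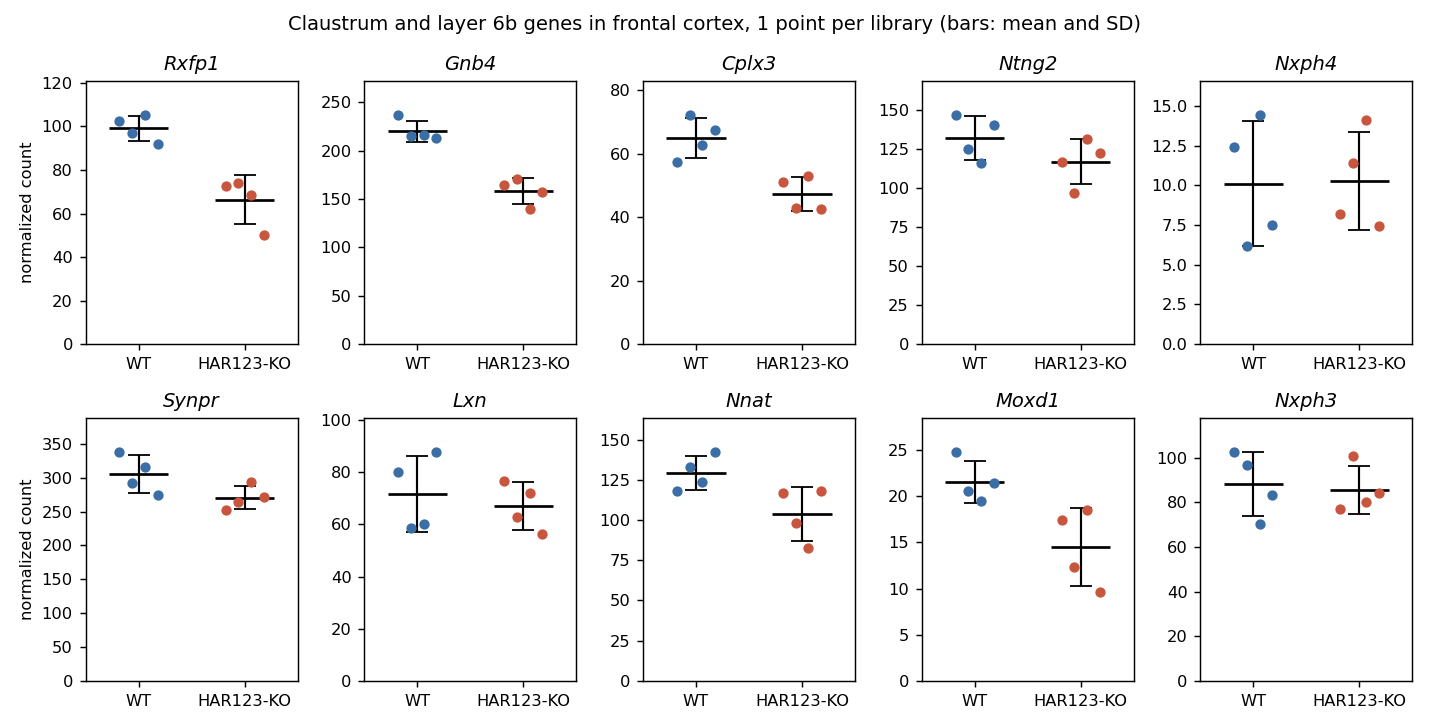
Normalized count (vertical axis, linear from 0) of each of the 10 genes, with 1 point per library, WT in blue and HAR123-KO in red, and bars for the mean and SD of 4 libraries. The groups are separate for Rxfp1, Gnb4, Cplx3, Moxd1 and, by a gap too small to see, Nnat, and they overlap for the other 5 genes.

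Set against all genes tested, 1 of the 10 genes, Rxfp1, was called lower (a Benjamini-Hochberg adjusted p under 0.05 together with a log2 fold change beyond 0.5 in size, by DESeq2), and 0.0705% of the 12758 genes with an adjusted p were called lower. By edgeR and by limma-voom 1 of the 10 was called lower too, beside 0.172% and 0.11% of the genes those tools tested. Without the minimum fold, 2 of the 10 were lower past an adjusted p of 0.05 (Rxfp1 and Gnb4), beside 0.713% of all genes tested that were lower and 1.69% in either direction. All HAR123-KO libraries lay below all WT libraries in 5 of the 10, beside 3.65% of all genes tested. A log2 fold change below 0 was found in 9 of the 10, beside 50.6% of all genes tested. The median log2 fold change of the 9 genes that passed the filter on low counts was -0.32, and that of all 10 was -0.25, while that of all genes tested was -0.0017. Since the genes were proposed from this contrast, these counts, and the calls on single genes given further on, are a description and nothing is read from them.

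Rxfp1 and Gnb4 belong to signalling through G proteins. Rxfp1 (ENSMUSG00000034009, GRCm38 chr3:79641611-79737880, minus strand) encodes the receptor for the peptide hormone relaxin, a G protein-coupled receptor with a large leucine-rich ectodomain. Its normalized counts were 102.5, 96.8, 105.1 and 92.0 in WT replicates 1 to 4 and 72.7, 74.2, 68.7 and 49.98 in HAR123-KO replicates 1 to 4. The highest HAR123-KO library was therefore 17.8 normalized counts under the lowest WT library, and HAR123-KO replicate 4 was the lowest of all 8. The means were 99.1 ± 5.85 and 66.4 ± 11.2 (SD, n = 4 each), a log2 fold change of -0.57 ± 0.15 (SE). The call on Rxfp1 was lost without WT replicate 1, without WT replicate 3 or without HAR123-KO replicate 4, each of which left 0 of the 10 genes called.

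Gnb4 (chr3:32580332-32616585, minus strand) encodes a beta subunit of heterotrimeric G proteins and is among the genes most used to outline the mouse claustrum. The 4 WT libraries held 236.4, 215.2, 216.1 and 212.9 normalized counts and the 4 HAR123-KO libraries 164.8, 170.2, 140.0 and 157.4. These groups were the farthest apart of the 10 genes in counts, with a gap of 42.7 between the lowest WT and the highest HAR123-KO library. The means were 220 ± 10.9 and 158 ± 13.2 (SD, n = 4 each) and the log2 fold change was -0.48 ± 0.10 (SE). That lies just inside the limit of 0.5, so Gnb4 was not called. Without HAR123-KO replicate 2 its fold change passed the limit, and the number of the 10 genes called lower became 2.

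Cplx3 and Synpr encode proteins of the presynaptic terminal. Cplx3 (chr9:57599992-57606281, minus strand) is a complexin, a small protein that binds the SNARE complex and controls the fusion of synaptic vesicles, and in the cortex it marks layer 6b neurons together with some interneurons. Its normalized counts were 57.4, 72.1, 62.7 and 67.4 in WT and 51.2, 42.8, 52.8 and 42.5 in HAR123-KO. All HAR123-KO libraries lay below all WT libraries, with means of 64.9 ± 6.28 and 47.3 ± 5.44 (SD, n = 4 each). The log2 fold change was -0.45 ± 0.18 (SE). The spread between Cplx3 libraries of one genotype (9.68% and 11.5% of the mean) was smaller than the 12.5% and 14.3% that counting alone gives at these levels.

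The RefSeq window around the Cplx3 start site, from 250 bases before it to 50 after it (GRCm38.p6 chr9:57606232-57606531, minus strand), is printed 5′ to 3′ as the promoter of the layer 6b gene with the clearest separation of groups for which a window was at hand. The capitals mark AGGTCA, the half-site letters of nuclear receptors (the protein family of Nr4a2), 222 bases before the start, overlapped by CCAAT read on the other strand.
Cplx3: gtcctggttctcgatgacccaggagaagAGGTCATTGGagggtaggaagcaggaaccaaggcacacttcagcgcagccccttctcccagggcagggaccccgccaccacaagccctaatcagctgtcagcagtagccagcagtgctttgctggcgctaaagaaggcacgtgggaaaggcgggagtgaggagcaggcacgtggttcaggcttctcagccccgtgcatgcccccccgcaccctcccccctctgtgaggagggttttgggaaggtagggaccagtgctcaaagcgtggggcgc

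Synpr (chr14:13284780-13616340, plus strand) encodes synaptoporin, a membrane protein of synaptic vesicles in the synaptophysin family. Its WT libraries held 337.7, 292.4, 316.0 and 274.9 normalized counts and its HAR123-KO libraries 252.9, 263.4, 293.2 and 271.2. It was the most abundant of the 10 genes in counts. HAR123-KO replicate 3 lay above the lowest 2 WT libraries, so the groups overlapped. The means were 305 ± 27.4 and 270.2 ± 17.1 (SD, n = 4 each), and the log2 fold change was -0.17 ± 0.08 (SE).

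Ntng2, Nxph3 and Nxph4 encode proteins that act between cells. Ntng2 (chr2:29194541-29253005, minus strand) encodes netrin-G2, a GPI-anchored protein of axons that binds the postsynaptic adhesion protein Lrrc4. Its counts were 146.4, 124.6, 116.1 and 140.1 in WT and 116.7, 97.0, 131.2 and 122.3 in HAR123-KO libraries after normalization. Only HAR123-KO replicate 2 lay below every WT library. The means were 132 ± 13.9 and 117 ± 14.5 (SD, n = 4 each) with a log2 fold change of -0.17 ± 0.12 (SE). Of its 3990 exon bases, 558 are shared with 6530402F18Rik, a transcript on the same strand, and reads from that stretch cannot be assigned to one of the pair.

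Nxph3 and Nxph4 are neurexophilins, secreted glycoproteins of a family that binds alpha-neurexins, and both are used as deep-layer markers. Nxph3 (chr11:95509845-95514570, minus strand) had 102.5, 96.8, 70.3 and 83.4 normalized counts in WT and 76.8, 100.8, 80.1 and 84.0 in HAR123-KO. The HAR123-KO libraries fell within the WT range, and the log2 fold change was -0.04 ± 0.15 (SE). Nxph4 (chr10:127525473-127534559, minus strand), the member of the list most specific to layer 6b in the cortex, was the rarest. It had 12.4, 6.2, 14.4 and 7.5 normalized counts in WT and 8.2, 11.4, 14.1 and 7.4 in HAR123-KO, from 6 to 17 raw counts per library. Its mean of 10.2 was under the low-count filter of 17.6, so it received no adjusted p. Its log2 fold change was 0.02 ± 0.42 (SE), an error that spans both a rise and a fall as large as the difference in Rxfp1 when taken at 2 SE, so a difference of that size was not detectable at this depth.

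Lxn, Nnat and Moxd1 have other roles. Lxn (chr3:67457998-67463926, minus strand) encodes latexin, an inhibitor of carboxypeptidase A that marks the claustrum, the endopiriform nucleus and neurons of the lateral cortex. Its normalized counts were 79.9, 58.7, 60.2 and 87.7 in WT and 76.8, 62.8, 72.2 and 56.4 in HAR123-KO. The WT libraries fell into a higher and a lower pair with a spread of 20.2% of the mean, against 11.9% from counting alone, and the HAR123-KO libraries lay mostly between them. The means were 71.6 ± 14.5 and 67.0 ± 9.20 (SD, n = 4 each), and the log2 fold change was -0.08 ± 0.16 (SE). Lxn shares 63 of its 1508 exon bases with Gfm1 on the opposite strand.

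Nnat (chr2:157560078-157562522, plus strand) encodes neuronatin, a small membrane protein of the endoplasmic reticulum, and is an imprinted gene expressed from the paternal allele inside an intron of Blcap. Its WT libraries held 118.2, 132.8, 123.7 and 142.3 normalized counts and its HAR123-KO libraries 116.7, 97.9, 82.8 and 118.0. The groups were separated by 0.165 normalized counts, far less than the spread within either. The means were 129 ± 10.6 and 104 ± 16.8 (SD, n = 4 each), with a log2 fold change of -0.32 ± 0.13 (SE). Blcap, which lies on the opposite strand and shares no exon base with Nnat, had a log2 fold change of 0.06 ± 0.10 (SE, adjusted p = 0.962 by DESeq2). The Nnat promoter (GRCm38.p6 chr2:157559828-157560127, plus strand) is shown because the gene is imprinted and sits within another gene, and it held none of the motifs searched.
Nnat: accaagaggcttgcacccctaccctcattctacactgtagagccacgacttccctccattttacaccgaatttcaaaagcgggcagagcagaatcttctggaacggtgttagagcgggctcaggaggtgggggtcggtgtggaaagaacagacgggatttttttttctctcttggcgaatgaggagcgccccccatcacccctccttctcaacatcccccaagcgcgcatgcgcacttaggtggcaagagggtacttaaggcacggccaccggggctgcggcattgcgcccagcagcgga

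Moxd1 (chr10:24223517-24302790, plus strand) encodes a monooxygenase related to dopamine beta-hydroxylase. Its normalized counts were 24.8, 20.6, 19.5 and 21.4 in WT and 17.4, 12.4, 18.5 and 9.6 in HAR123-KO. Every HAR123-KO library lay below every WT library, but the smallest gap was 1.0 normalized count and HAR123-KO replicates 2 and 4 carried most of the difference. The means were 21.6 ± 2.28 and 14.5 ± 4.21 (SD, n = 4 each), which was 32.9% lower, nearly as much as for Rxfp1. The log2 fold change of -0.56 had an SE of 0.31, larger than that of Rxfp1 (0.15), and Moxd1 was not called. Its promoter (GRCm38.p6 chr10:24223267-24223566, plus strand) is shown for its 3 copies of the GC box GGGCGG, 21 and 8 bases before the start and from the 14th base after it. CCAAT, also in capitals, lies 243 bases before the start.
Moxd1: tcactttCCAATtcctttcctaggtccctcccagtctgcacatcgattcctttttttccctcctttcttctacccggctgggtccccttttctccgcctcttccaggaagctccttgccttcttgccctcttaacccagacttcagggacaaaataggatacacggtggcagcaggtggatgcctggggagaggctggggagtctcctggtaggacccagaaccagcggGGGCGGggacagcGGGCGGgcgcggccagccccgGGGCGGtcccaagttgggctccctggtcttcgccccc

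Windows of this kind were at hand for 6 of the 10 genes (Ntng2, Nnat, Lxn, Cplx3, Moxd1 and Synpr, the last with 2). Each was searched on both strands for 6 motifs. Of all 32851 RefSeq promoter windows of the same length, 16.3% hold AGGTCA, 1.51% the longer Nr4a-type element AAAGGTCA that contains it, 1.79% the cAMP response element TGACGTCA, 35.7% GGGCGG, 37.4% CCAAT and 13.6% TATAAA. AAAGGTCA, TGACGTCA and TATAAA were in none of the 7 windows, and AGGTCA was in the Cplx3 window alone. GGGCGG was in the Lxn window, 54 bases before the start, in the Moxd1 window and in the first Synpr window. CCAAT was in the windows of Ntng2, Cplx3, Moxd1 and Synpr.

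**Figure D2:**
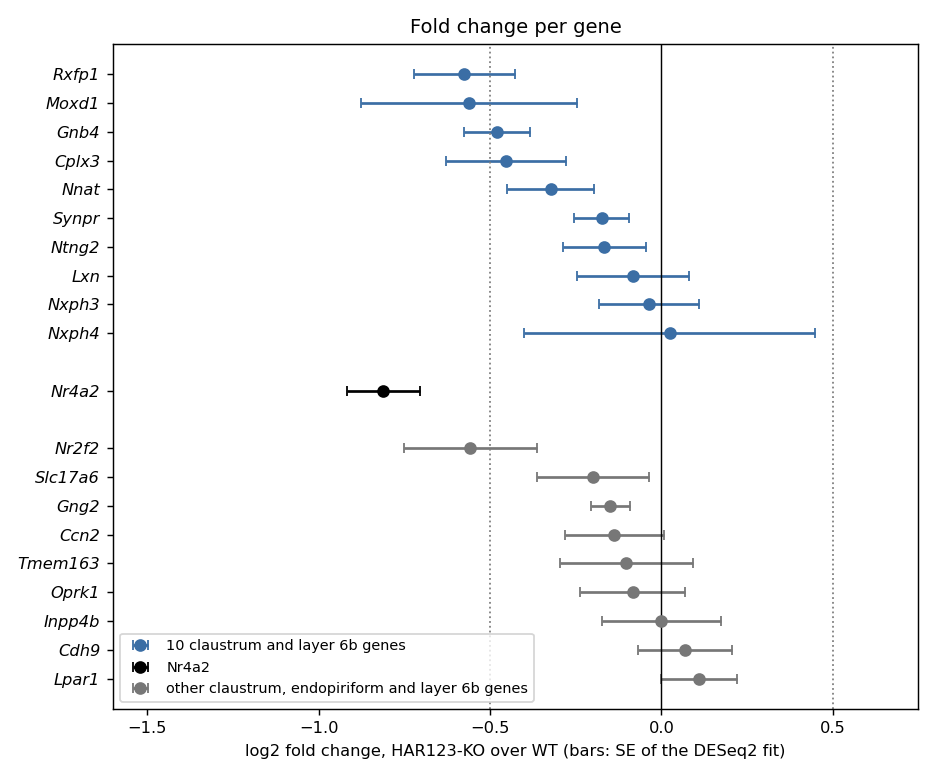
Log2 fold change of HAR123-KO over WT (horizontal axis) for the 10 genes in blue, Nr4a2 in black and the other claustrum, endopiriform and layer 6b genes in grey (those averaging 20 normalized counts or more), with bars for the SE of the DESeq2 fit and dotted lines at the limit of 0.5. The 10 genes run from -0.57 (Rxfp1) to 0.02 (Nxph4), and Nr4a2 lies beyond all of them at -0.81.

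Compared per length of annotated exon, which allows a rough comparison between genes, the 10 genes covered a wide range in WT cortex. The transcripts made in this tissue may be shorter than all annotated exons of a gene together, which would lower its value. In CPM per kilobase of exon, with CPM taken over the nuclear protein-coding counts other than Lars2, Nnat was the highest in WT at 22.5 ± 1.84 (SD, n = 4), followed by Lxn at 15.1 ± 3.08 and Nxph3 at 13.4 ± 2.21. Ntng2 (10.5 ± 1.14) and Synpr (10.3 ± 0.929) came next. Cplx3 (6.98 ± 0.672), Gnb4 (5.51 ± 0.286) and Rxfp1 (3.13 ± 0.181) formed clear steps below them, and Moxd1 (2.14 ± 0.233) and Nxph4 (1.92 ± 0.739) were the lowest. The WT ranges of neighbours in this order overlapped for Lxn and Nxph3, Nxph3 and Ntng2, Ntng2 and Synpr, and Moxd1 and Nxph4, so those pairs have no order. The other 5 pairs of neighbours were separate.

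In HAR123-KO the order per length was the same except at its end, where Nxph4 (1.95 ± 0.580) stood above Moxd1 (1.44 ± 0.417) with overlapping ranges. Nnat was at 18.04 ± 2.93, Gnb4 at 3.96 ± 0.333 and Rxfp1 at 2.10 ± 0.353 (SD, n = 4 each). The Nnat range, separate from that of Lxn in WT, overlapped it in HAR123-KO. Rxfp1, separate from the rarest genes in WT, overlapped Nxph4 in HAR123-KO.

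**Figure D3:**
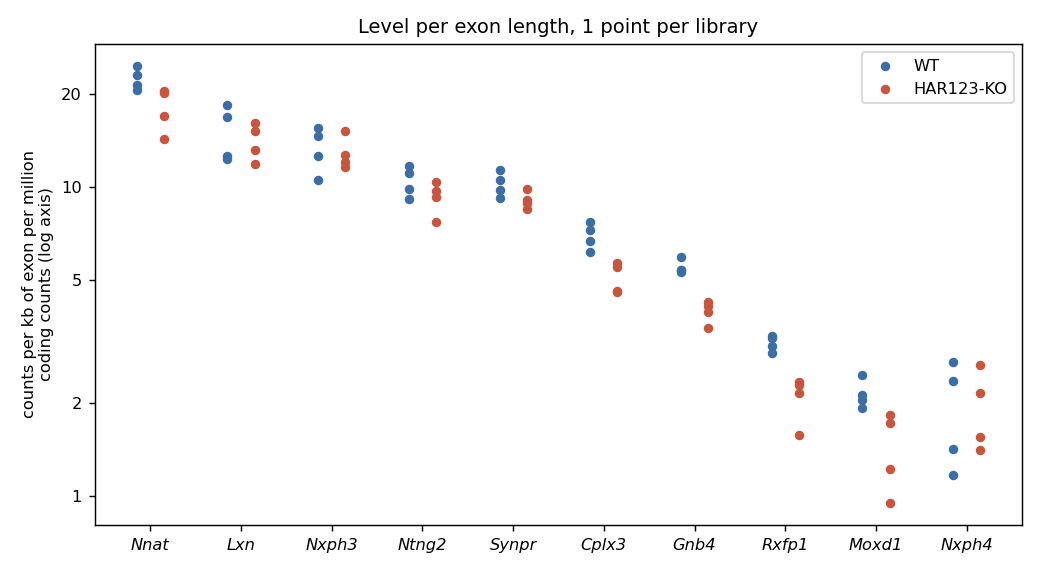
Level per length of each of the 10 genes, in CPM of the nuclear protein-coding counts per kilobase of exon (logarithmic axis), with 1 point per library, WT in blue and HAR123-KO in red, ordered by the WT mean. The WT means run from 22.5 (Nnat) down to 1.92 (Nxph4), and the red points are below the blue ones without overlap in Cplx3, Gnb4, Rxfp1, Moxd1 and, narrowly, Nnat.

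The libraries of a genotype did not move evenly over the 10 genes. HAR123-KO replicate 4 had the lowest value of its group in 5 of the 10 genes and replicate 3 the highest in 5. The 4 HAR123-KO libraries were below every WT library in 6, 7, 5 and 7 genes, in the order of their replicate numbers, beside 23.0%, 22.5%, 21.8% and 22.9% of all genes tested. WT replicate 1 was the highest of its group in 5 of the 10. The mean log2 profile of the 10 genes, centred on the WT mean, was 0.11, -0.07, -0.03 and -0.01 in WT replicates 1 to 4 and -0.23, -0.29, -0.19 and -0.42 in HAR123-KO replicates 1 to 4. Every HAR123-KO library was thus below every WT library in the mean profile, with replicate 4 the lowest.

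The spread between libraries of a genotype was over 1.5 times what counting alone gives at the mean of that group, in at least 1 group, for 4 of the 10 genes (Synpr, Lxn, Nnat and Nxph3). Gnb4 was not among them and varied by 4.97% of the mean in WT and 8.33% in HAR123-KO, where counting alone gives 6.77% and 7.86%. Rxfp1 varied by 5.90% and 16.8%, beside 10.1% and 12.1% from counting, and the higher figure came with its low value in HAR123-KO replicate 4. Moxd1 was at 10.6% and 29.1%, beside 21.7% and 25.8%, and Nnat at 8.18% and 16.2%, beside 8.83% and 9.74%. Synpr varied by 8.99% in WT, beside 5.74%, and Nxph3 by 16.3% in WT, beside 10.8%. With 4 libraries a group these figures are themselves imprecise.

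Among 9272 other genes averaging 50 normalized counts or more, those whose profile over the 8 libraries came closest to the mean profile of the 10 genes were Pdcd11, Crls1, Egr1, Eftud2 and Aldh7a1. Their mean absolute difference from it on the log2 scale was 0.0508, 0.0529, 0.0534, 0.0569 and 0.0574, in that order. The 10 genes themselves were farther from their own mean, from 0.0983 (Synpr) and 0.108 (Gnb4) to 0.368 (Nxph4). A mean over 10 genes is smoother than the profile of any 1 of them.

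Nr4a2, the transcription factor shared by these cell populations and not counted among the 10, had 192 to 240 normalized counts in WT and 110 to 131 in HAR123-KO libraries, a log2 fold change of -0.81 ± 0.11 (SE).

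Other genes of the claustrum, the endopiriform nucleus and layer 6b were looked at on the same scale, to see whether genes outside the 10 differed. Of 15 such genes listed, 14 were in the table under these symbols and 9 had an adjusted p. None was called, and none had an adjusted p under 0.05 by DESeq2, edgeR or limma-voom. At an unadjusted p under 0.05 there were 3, Nr2f2 and Gng2 with lower and Col8a1 with higher means in HAR123-KO. Col8a1 had no adjusted p, so 2 of the 9 passed that limit, beside 8.78% of all genes tested. The log2 fold change was below 0 in 6 of the 9, beside 50.6% of all genes tested, and their median was -0.10. Hsd17b2 had 0 counts in all libraries, and Trh and Car3, a carbonic anhydrase used as a claustrum marker, had means of 1.93 and 2.01 normalized counts, too few to compare.

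Gng2, a G protein gamma subunit and a claustrum marker, was the most abundant of these genes. Its normalized counts were 558.4, 600.2, 580.4 and 567.0 in WT and 494.5, 502.1, 549.4 and 532.8 in HAR123-KO. The groups did not overlap, and the log2 fold change was -0.15 ± 0.06 (SE, adjusted p = 0.243 by DESeq2). Lpar1, a receptor for lysophosphatidic acid found in the subplate, had a log2 fold change of 0.11 ± 0.11 (SE, adjusted p = 0.909 by DESeq2), and the cadherin Cdh9 one of 0.07 ± 0.14 (SE, adjusted p = 0.978). Ccn2 (connective tissue growth factor), a classical marker of layer 6b, had 86.7, 85.4, 81.3 and 87.7 normalized counts in WT and 84.0, 85.6, 74.8 and 64.9 in HAR123-KO. Only HAR123-KO replicates 3 and 4 of Ccn2 lay below WT, and its log2 fold change was -0.14 ± 0.14 (SE, adjusted p = 0.912 by DESeq2). Nr2f2, an orphan nuclear receptor, had the smallest adjusted p of the list and was named after its values were seen. It had 52.9, 64.9, 58.5 and 53.5 normalized counts in WT and 46.1, 38.0, 44.9 and 26.6 in HAR123-KO, without overlap, and was at -0.56 ± 0.19 on the log2 scale (SE, adjusted p = 0.155 by DESeq2). The summed level of the list in HAR123-KO was 93.4% of the WT mean, beside 82.3% for the 10 genes, which were chosen by this contrast. Gng2 made up a large part of the sum of the wider list. Its means were 576 in WT and 520 in HAR123-KO, within sums of 1180 to 1263 and 1088 to 1176.

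Partners and relatives of the encoded proteins (ligands, receptors, paralogues and binding proteins) were counted as well. Of 50 such genes, 29 had an adjusted p and none was called in either direction by DESeq2, edgeR or limma-voom, beside 0.298% of all genes tested by DESeq2. Without the minimum fold, 2 were past an adjusted p of 0.05 by DESeq2, both higher in HAR123-KO, beside 1.69% of all genes tested, and 8 of the 29 had an unadjusted p under 0.05 (3 higher, 5 lower), beside 8.78% of all genes tested. Their median log2 fold change was -0.02. The same count past an adjusted p of 0.05 was 1 by edgeR and 2 by limma-voom.

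For the signalling genes, the relaxin-family ligands Rln1, Rln3, Insl3 and Insl5 had means of at most 1.0 normalized count, and the related receptor Rxfp2 had a mean of 8.49, so no ligand or second receptor was measured well enough to compare. Gnb1, the most abundant beta subunit partner of the list, had a log2 fold change of -0.05 ± 0.03 (SE, adjusted p = 0.759 by DESeq2). Gng7, a gamma subunit best known from the striatum, rose from 615.8, 682.6, 656.7 and 615.1 normalized counts in WT to 805.8, 828.2, 847.8 and 868.9 in HAR123-KO. Its log2 fold change was 0.38 ± 0.05 (SE, adjusted p = 1.85e-11 by DESeq2), opposite in sign to that of Gnb4.

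For the synaptic genes, the complexin Cplx2 rose by 0.09 ± 0.02 on the log2 scale (SE, adjusted p = 0.00840 by DESeq2) but did not pass by edgeR (adjusted p = 0.0770, and 4.67e-04 by limma-voom). The SNARE protein gene Snap25 had a log2 fold change of 0.01 ± 0.02 (SE, adjusted p = 0.991). Syp, which encodes the vesicle protein synaptophysin, was at -0.06 ± 0.03 (SE, adjusted p = 0.4999 by DESeq2). Lrrc4c, a netrin-G ligand, was at 0.03 ± 0.05 (SE, adjusted p = 0.968 by DESeq2). Atp2a2, the calcium pump of the endoplasmic reticulum that neuronatin is known to act on, was at -0.03 ± 0.03 (SE, adjusted p = 0.805 by DESeq2). Pam, a monooxygenase that amidates peptides, was at 0.06 ± 0.05 (SE, adjusted p = 0.852 by DESeq2). Cpa6 and the other carboxypeptidases and Rarres1, a relative of Lxn, were too low for an adjusted p.

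Markers of other cell types also differed between the groups, and their values stand here beside those of the 10 genes. Of 10 markers of striatal projection neurons, 8 rose past an adjusted p of 0.05 by DESeq2 and 3 were called, with a summed level of 4337 to 4492 normalized counts in WT and 5758 to 5945 in HAR123-KO (132.8% of the WT mean). Of 10 markers of the choroid plexus, the 2 with an adjusted p, Ttr and Kl, were both called higher, and the summed level was 92.3 to 107 in WT and 754 to 781 in HAR123-KO. Ttr alone, with means of 68.2 in WT and 641 in HAR123-KO, made up most of that sum. Kcne2 and Otx2 of that list were at or near 0 in WT, with means of 0.212 each. The striatum borders the claustrum across the external capsule, and the choroid plexus lies in the ventricles. Their part in the values of the 10 genes was not tested.

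Endothelial markers summed to 230 to 258 in WT and 187 to 196 in HAR123-KO (77.4% of the WT mean) with 0 of 5 past an adjusted p of 0.05 by DESeq2, edgeR or limma-voom and 3 at an unadjusted p under 0.05. The oligodendrocyte marker Mbp rose (adjusted p = 2.27e-12 by DESeq2), and the sum of 5 such markers was 112.6% of the WT mean. Of 5 astrocyte markers, Gja1 and Slc1a3 fell (adjusted p = 0.00671 and 2.88e-04 by DESeq2), while Gfap had a higher mean (266.6 and 296.4 normalized counts, log2 fold change 0.16, unadjusted p = 0.0487 and adjusted p = 0.558 by DESeq2) and Aldh1l1 was near WT. The sum of the 5 was 90.7% of the WT mean. None of the 3 ependymal, 8 interneuron or 5 microglial markers had an adjusted p under 0.05 by DESeq2 or edgeR, with 0, 1 and 0 at an unadjusted p under 0.05 and sums of 113.1%, 103.5% and 93.5% of the WT mean. The part of these cell types in the values of the 10 genes was not tested either.

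Among cortical neurons, markers of neighbouring layers did not share one direction. The sum of 4 layer 6 corticothalamic markers was 706 to 749 in WT and 793 to 835 in HAR123-KO (111.2% of the WT mean), with every HAR123-KO library above every WT library. None of the 4 had an adjusted p under 0.05 by DESeq2, 2 (Foxp2 and Syt6) had an unadjusted p under 0.05, and edgeR put 2 and limma-voom 1 under an adjusted p of 0.05. The 3 near-projecting markers summed to 114.2% of the WT mean, with no adjusted p under 0.05 by DESeq2 and 0 at an unadjusted p under 0.05. Of 5 upper layer markers, Cux2 fell (log2 fold change -0.20, adjusted p = 0.0167 by DESeq2), and the sum was 92.5%. Of 5 general glutamatergic markers, Slc17a7 fell (log2 fold change -0.16, adjusted p = 8.21e-06 by DESeq2), and the sum was 91.3%.

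**Figure D4:**
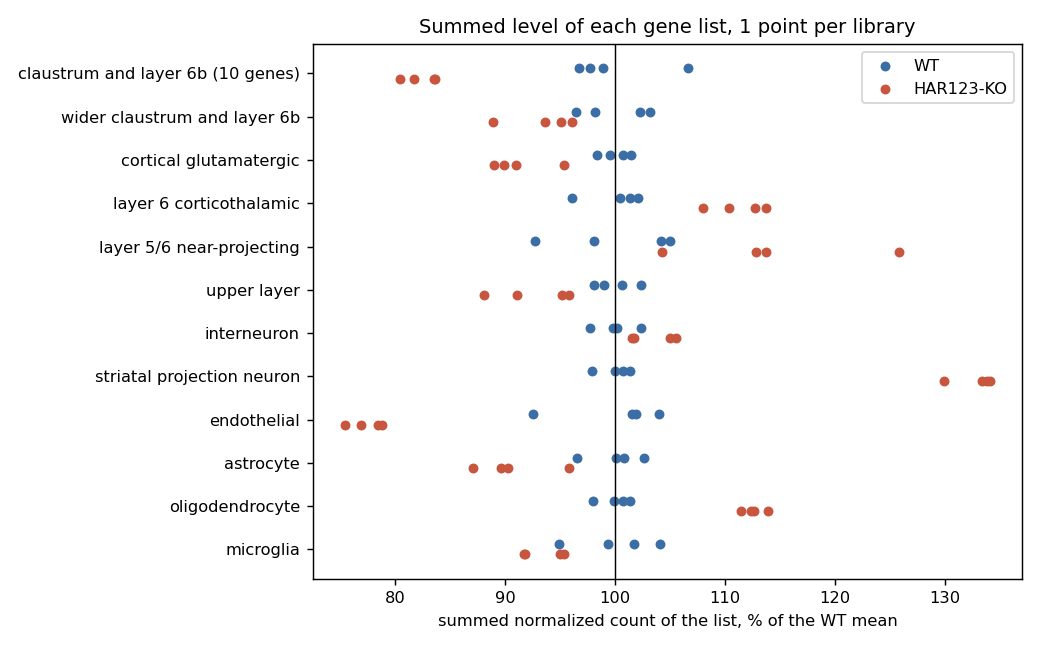
Summed normalized count of each gene list as a percentage of its WT mean (horizontal axis), with 1 point per library, WT in blue and HAR123-KO in red. The 10 claustrum and layer 6b genes lie at 80.5% to 83.6% in HAR123-KO, layer 6 corticothalamic markers at 108% to 113.8% and striatal markers at 129.9% to 134.1%. Choroid plexus (760.1% on average, mostly from Ttr) and ependyma are not drawn.

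The fold changes of the 10 genes were computed again under 15 other settings, namely another test, another scaling, another low-count filter, the replicate number as a block and each library left out in turn. Rxfp1, Gnb4, Cplx3, Moxd1, Nnat, Synpr and Ntng2 had a log2 fold change below 0 under all 15. Rxfp1 ranged from -0.63 to -0.47, Gnb4 from -0.52 to -0.42, Cplx3 from -0.51 to -0.40 and Moxd1 from -0.71 to -0.42. Nnat ranged from -0.39 to -0.22, Synpr from -0.22 to -0.13 and Ntng2 from -0.23 to -0.08, the last without HAR123-KO replicate 2. Lxn was below 0 under 14 settings, Nxph3 under 12 and Nxph4 under 4, so the sign of these 3 genes changed with the setting. All settings refit the same libraries, so a sign kept under all 15 does not settle the direction of a gene. The limit of 0.5 ran through the ranges of Rxfp1, Gnb4, Cplx3 and Moxd1. The number of the 10 genes without overlap was 5 under 2 other scalings, where the share of all genes tested was 3.63% and 3.68%. It was 5 to 6 when a library was left out, which makes separation easier for any gene and raised the share of all genes tested to between 5.38% and 5.7%.

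**Figure D5:**
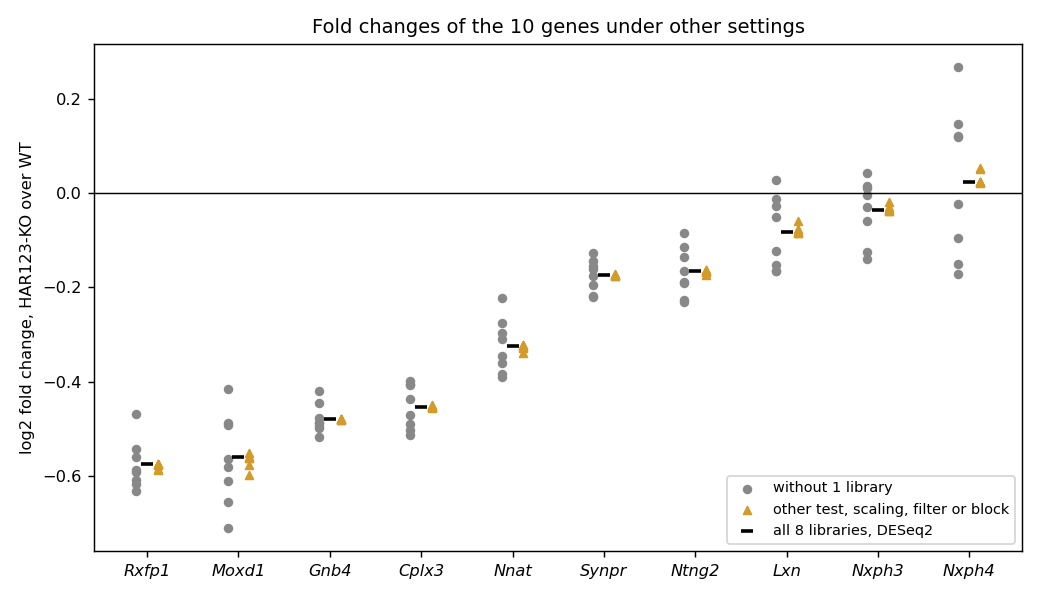
Log2 fold change of HAR123-KO over WT (vertical axis) of the 10 genes under each setting, with a black bar for all 8 libraries by DESeq2, grey points for 1 library left out and yellow triangles for another test, scaling, filter or block. Leaving out a library moved the values more than the tests and scalings did, most of all in Nxph4 (-0.17 to 0.27) and Moxd1 (-0.71 to -0.42).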

How the data were processed

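Total RNA from frontal cortex was depleted of ribosomal RNA and sequenced as directional paired-end libraries, 4 per genotype. The authors deposited raw read counts per gene, made per their processing notes with STAR 2.5.2b on GRCm38 and featureCounts, and the identifiers matched Ensembl 96 (GENCODE M21) in all 55536 rows. Strand and multi-mapping settings are not given in the sources used here, so a gene that overlaps another on either strand may carry its reads.

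Counts were analysed with DESeq2 1.42.0 in R 4.3.3 (Wald test on genotype alone, size factors by the median of ratios, independent filtering at 0.1), and p-values were adjusted over 12758 genes. Calls needed both an adjusted p under 0.05 and a fold change past 0.5 on the log2 scale, the limits the study used for this tissue. Alternatives were edgeR 4.0.16, limma-voom (limma 3.58.1), TMM factors, size factors from protein-coding genes, independent filtering switched off, at least 10 counts in 4 libraries, the replicate number as a block, no minimum fold, stricter limits and each library left out. The fits were tested on simulated data. Counting error was taken as Poisson error of the raw counts, without molecular tags, and covers counting only.

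Replicates are separate samples per the labels, which do not say whether each is 1 animal, so p-values measure the spread between these samples. Same-numbered libraries did not deviate together, and the numbers were not treated as pairs. The 10 genes and the other lists were chosen with earlier results of these data known. Named were the 10 genes, Nr4a2, the 4 most abundant genes of the wider list, any gene of the wider or partner lists past an adjusted p of 0.05, the most abundant gene of each partner list, the 5 genes with the closest profile (on log2 of the normalized count plus 1), and defining cell type markers. Nr2f2, Col8a1, Car3, Trh, Hsd17b2, Blcap and the relaxin ligands were named after their values were seen. A few listed genes are not reported here by name. Promoter windows came from RefSeq (GRCm38.p6), and AGGTCA was added to the motifs after the data were seen. Coordinates are 1-based GRCm38.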

Additional observations from a re-analysis of the deposited data

Results flagged for a closer look

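In 6 of 88 groups of 4 libraries examined, 1 library stood apart from the other 3 by Dixon's criterion at the 95% level, and chance alone gives about 4.4. The groups covered the 10 genes, Nr4a2, Nr2f2, the genes named by rule from the wider, partner and closest-profile lists, and the summed cell type lists. All 6 were groups of a single gene. Of the 10 claustrum and layer 6b genes only Gnb4 was among them, with 236.4 normalized counts in WT replicate 1 beside 212.9 to 216.1 in the other WT libraries, so its WT mean is raised by that library. Cdh9 had 122.9 in WT replicate 3 beside 86.65 to 89.57. Cpa6 had 1.126 in WT replicate 1 beside 4.118 to 4.279. Pam had 782.7 in HAR123-KO replicate 3 beside 715 to 723.2, and Rxfp2 had 12.84 in WT replicate 4 beside 9.007 to 9.32. Eftud2 had 352.1 in WT replicate 2 beside 383 to 388.9 normalized counts.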

How the results depend on the processing

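Over all genes, 38 were called, and the count was 73 by edgeR, 9 with the replicate number as a block, 215 without a minimum fold, 3 at an adjusted p under 0.01 with a log2 fold change over 1, and 11 to 44 when a library was left out (18 without WT replicate 3, 11 without HAR123-KO replicate 4). Of the 10 claustrum and layer 6b genes 1 was called lower, and the count was 0 with the replicate block, 2 without a minimum fold, 0 at the stricter limits and 0 to 2 when a library was left out. It was 0 without WT replicate 1, without WT replicate 3 or without HAR123-KO replicate 4, and 2 without HAR123-KO replicate 2. Of the partner genes 0 were called, and 2 were without a minimum fold. The cause of these differences was not tested, beyond the smaller number of libraries and the wider or narrower limits themselves. The other alternatives kept these counts within 1.5 times, and the wider list had 0 called under each of them.

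The replicate numbers share only a number. Deviations from the group means of same-numbered libraries correlated at -0.0095, -0.0041, 0.0289 and -0.0274 over 9280 genes, and 1 of 4 libraries correlated best with its own number, so a call lost under the block is not read as a weaker effect. The median log2 fold change of all genes stayed between -0.0040 and -0.0006 under every scaling and left-out library. Depth limits Nxph4, Moxd1, Car3, Trh and the relaxin and latexin partners, whose low counts leave fold changes with large errors.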
